A study of Mus musculus with 16 samples.

Results

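The nuclear-encoded subunits of the respiratory chain were followed in RNA from protrusions and cell bodies of mouse fibroblasts. Members were all tested RNAs whose symbol begins with Nduf, Uqcr, Atp5, Sdha to Sdhd or Cox4 to Cox8 followed by a, b or c, without pseudogenes, which gave 86 of 12900 RNAs. Of these, 75 encode subunits, with 36 in complex I, 4 in complex II, 8 in complex III, 12 in complex IV and 15 in complex V. The other 11 are 7 assembly factors of complex I and 4 RNAs of related proteins (Cox7a2l, Ndufa4l2, Atp5s and Atp5sl).

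Complexes I to IV pass electrons from NADH and succinate to oxygen in the inner mitochondrial membrane and, apart from complex II, pump protons across it, and complex V (ATP synthase) uses the returning protons to make ATP. A few subunits of complexes I, III, IV and V are encoded by mitochondrial DNA, and all others are encoded in the nucleus, translated in the cytosol or at the mitochondrial surface, and imported. Subunits of one complex work together in a fixed stoichiometry.

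Both lines derive from NIH/3T3, a long-established line of mouse fibroblasts, and each stably carried a transgene that doxycycline switches on. The transgene codes for human β-globin and ends in the 3′UTR of β-globin itself in HBB control cells, or in that of Pkp4 in Pkp4 cUTR cells. All cells had doxycycline for 3 days, were serum-starved, spent 2 h on filters with 3 μm pores and had LPA, which induces protrusions through the pores, in the lower chamber for 1 h before fixation in 0.3% paraformaldehyde for 10 min. Protrusions (Ps) and cell bodies (CB) were then scraped from filters. Each of the 4 groups (HBB CB, HBB Ps, Pkp4 cUTR CB and Pkp4 cUTR Ps) had 4 samples, each line was made by lentiviral transduction, and whether a line is a single clone is not given in the sources used here.

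Levels are log2 CPM, the log2 of reads per 1000000 reads of a scaled library, and libraries held 18660287 to 31260831 reads on the tested RNAs. The member with the fewest reads in any sample had 31, and 6 members fell under 100 reads in at least one sample. Of the fibroblast markers, 8 of 9 were in the table (all but Thy1), with a summed level of 25953 to 31538 CPM in CB and 19272 to 22555 CPM in Ps. Of 12 markers of other cell types 7 were in the table, with a summed level of 26.5 to 40.01 CPM over all samples, and Epcam, Krt18, Ptprc, Myod1 and Actc1 were not in the table. The nuclear RNAs Malat1, Neat1 and Kcnq1ot1 summed to 476 to 723 CPM in CB and 160 to 315 CPM in Ps. On the first principal component, which held 48.6% of the variance, CB sample 4 was the lowest CB sample of each line. That of Pkp4 cUTR cells lay apart, at 0.97. That of HBB cells, at 23.4, lay near CB sample 1 of Pkp4 cUTR cells, at 27.7. The other CB samples lay at 39.8 to 47.5. Counts of members are also given without the CB samples 4 of both lines. In the GENCODE annotation 28 members share exon sequence with a gene on the opposite strand and 5 with one on the same strand, and several have processed pseudogenes. How the counting divided such reads, and whether it used strand, is not given in the sources used here, so that their reads and those of these genes cannot be told apart.

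The promoters of the members were looked up in RefSeq (GRCm38.p6), where 73 of 86 members had an entry of 250 bases before and 50 bases after the start of the RNA. NRF-1 is a transcription factor known for its sites in promoters of respiratory chain genes, and the letters GCGCNTGCG, read on either strand, were present in 24 of 73 members' promoters (32.9%) and in 14.8% of 9519 promoters of tested RNAs. The letters CCGGAAG of ETS factors such as GABP were found in 16 (21.9%, against 19.1% of all), and AANATGGCG of YY1 in 9 (12.3%, against 5.65%). A promoter was counted once for each motif, and matches of different motifs were counted separately even where they overlapped. By complex, the NRF-1 letters were in 9 of 32 promoters of complex I, 2 of 3 of complex II, 3 of 5 of complex III, 1 of 10 of complex IV and 6 of 14 of complex V. One window of 30 bases that ends before the RefSeq start is shown for each complex that had one, so that the letters can be seen in place. Each comes from the member with the highest level, leaving aside promoters on a chromosome that was kept out of this display. In the 3 promoters of complex III no window laid out like those shown fitted within the 250 bases before the start, and none is shown. Capitals mark the NRF-1 letters on either strand.
Ndufb10 (complex I, chr17:24724430-24724459, minus strand): ctgcccactaCGCAGGCGCagctgtcacct
Sdhd (complex II, chr9:50603908-50603937, minus strand): cgctggggtgCGCACGCGCggtggcagcgc
Cox6a1 (complex IV, chr5:115349101-115349130, minus strand): caggaacgggGCGCATGCGcgctctcgctc
Atp5h (complex V, chr11:115420040-115420069, minus strand): accccgacggCGCAGGCGCcgcgcccgcct
The capitals begin 26, 78, 162 and 140 bases before the start of the RNA, in this order. The GENCODE annotation places the start of Ndufb10 farther upstream, at position 24724478, so that by it the Ndufb10 window lies inside the gene. A match is a run of letters and not a measured site. Members with and without the letters had a similar enrichment in protrusions of HBB cells, with a median log2 fold change (FC) of 0.65 over the 24 with them and 0.68 over the 49 without.

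To ask how these RNAs are divided between the cell body and the protrusion, Ps were compared with CB within each line. RNAs of all 5 complexes were higher in Ps. In HBB cells 77 of 86 members rose and none fell (limma-voom, Benjamini-Hochberg adjusted p under 0.05 over all 12900 RNAs), where 28.3% of all RNAs rose and 28.9% fell. The median log2 FC of the members was 0.66, a fold of 1.58, and that of all RNAs 0.01. The Pkp4 cUTR line had 72 of 86 higher and none lower, where 28.2% of all RNAs rose and 28.5% fell, with a median of 0.64. No member fell at an unadjusted p under 0.05 in either line, where 31% of all RNAs did in HBB and 30.9% in Pkp4 cUTR cells.

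The size of the change was moderate. Of the members 55 rose above 1.5-fold in HBB cells (13.9% of all RNAs did), and 9 passed the study's threshold for protrusion-enriched RNAs, FC above 2 with an unadjusted p under 0.05 (4.54% of all RNAs). These 9 were Atp5e, Ndufc1, Uqcrh, Cox7b2, Ndufa5, Uqcrb, Ndufa2, Ndufa1 and Cox7b. Of these, 7 passed in Pkp4 cUTR cells (5.07% of all RNAs) and no others did, and 51 members rose above 1.5-fold there (14.4%). Ndufc1 is named after its value was seen. All 4 Ps samples lay above all 4 CB samples for 76 members in HBB cells (25.5% of all RNAs) and for 63 in Pkp4 cUTR cells (22.6%), and for no member did all Ps samples lie below, as they did for 26.8% and 22.2% of all RNAs.

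**Figure D1:**
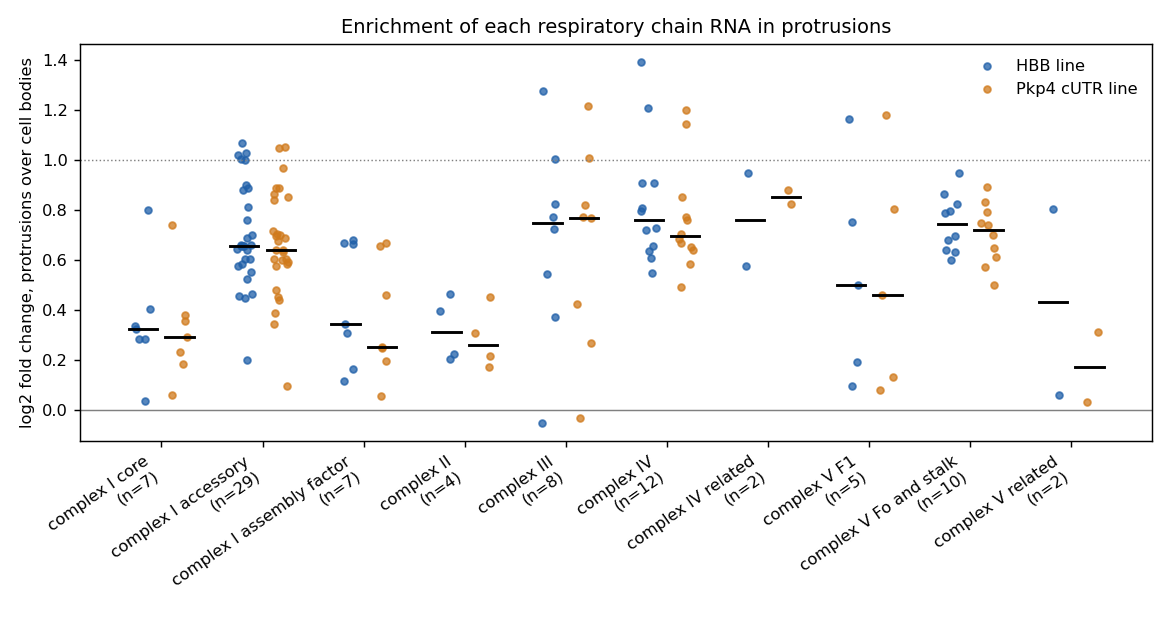
Log2 FC of Ps over CB (vertical axis) for each of the 86 RNAs, grouped by complex and by role, in HBB cells (blue) and Pkp4 cUTR cells (orange). Black bars are medians, the solid line is no change and the dotted line a 2-fold change. Complexes III and IV and the Fo and stalk RNAs of complex V have medians between 0.69 and 0.77, and complex II and the complex I core have medians between 0.26 and 0.32.

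The direction of most members did not rest on the scaling of the libraries, but that of a few did. The authors' scaling factors were below 1 in all Ps samples and above 1 in all CB samples, and with libraries scaled to their total reads the median log2 FC of all RNAs moved to −0.23 in HBB cells and −0.25 in Pkp4 cUTR cells. Then 65 members rose and 4 fell in HBB cells (Uqcrc1, Ndufv1, Atp5sl and Atp5b), and 59 rose and 6 fell in Pkp4 cUTR cells (the same 4 genes with Ndufa9 and Atp5a1), where 15.04% of all RNAs rose and 43.5% fell in HBB cells and 13.9% rose and 45.5% fell in Pkp4 cUTR cells. Relative to the median of all RNAs the members' median stood at 0.65 in both scalings in HBB cells. It could hardly have differed, since a scaling moves every RNA of a library by one amount. The values are shares of a library, so that more of an RNA and less of the other RNAs in Ps cannot be told apart, and in such bulk samples neither can fewer cells of a type and less RNA per cell.
Without the cell-body samples 4 of both lines, 78 members rose in HBB cells and 76 in Pkp4 cUTR cells. Of the fibroblast markers 6 of 8 were lower and 2 (Vim and S100a4) higher in Ps, 2 of the 3 nuclear RNAs were lower, and their part in the members' change was not tested.

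The level of the members was also summarised per sample. The median over the 86 RNAs, each centred on its mean over the 16 samples, lay between −0.43 and −0.21 in HBB CB and between 0.16 and 0.46 in HBB Ps. For Pkp4 cUTR cells it lay between −0.44 and −0.07 in CB and between 0.12 and 0.64 in Ps. Fractions did not overlap in either line, while the same median over all RNAs stayed between −0.01 and 0.02 in every sample. In both lines the CB sample with the highest median was number 4, and the Ps sample with the highest was number 3.

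**Figure D2:**
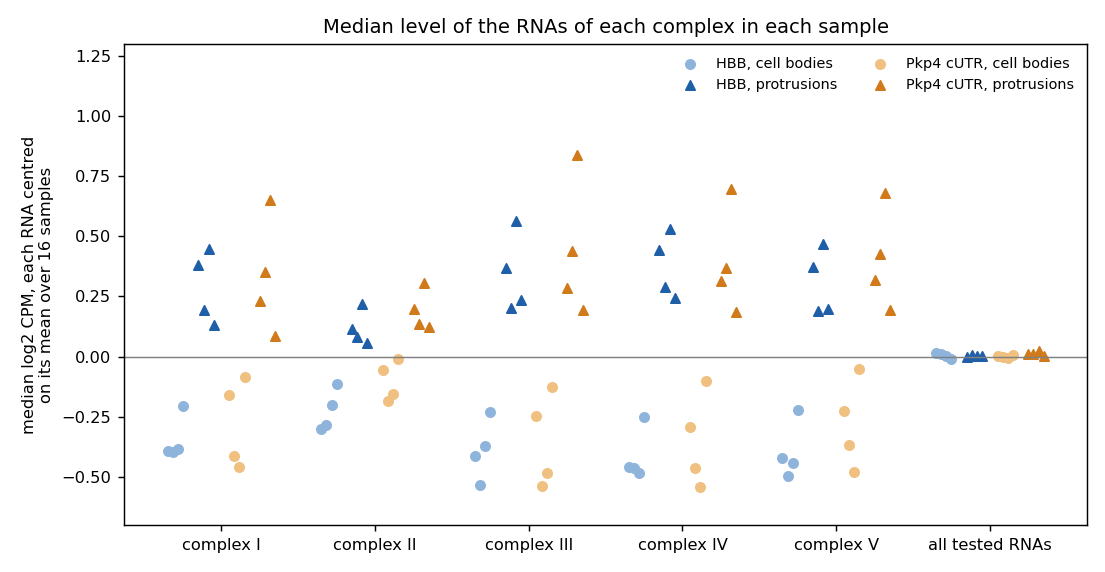
Median log2 CPM over the RNAs of each complex (vertical axis; each RNA centred on its mean over 16 samples) in each sample. Circles are CB and triangles Ps, blue HBB and orange Pkp4 cUTR cells, and each symbol is 1 sample. In HBB cells complex II spans −0.30 to 0.22 and complex IV −0.49 to 0.53, and all tested RNAs lie at 0 within 0.02.

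Complex I, NADH dehydrogenase, holds core subunits that carry flavin, iron-sulfur clusters and the quinone site, and a large set of accessory subunits around them. In HBB cells 35 of its 36 nuclear-encoded RNAs rose, with a median log2 FC of 0.65, and 33 rose in Pkp4 cUTR cells, with a median of 0.62. The core RNAs had a lower median than the accessory RNAs. The 29 accessory RNAs all rose in HBB cells, from 0.20 for Ndufa9 to 1.07 for Ndufa2, with a median of 0.66, and 28 rose in Pkp4 cUTR cells. The 7 core RNAs had a median of 0.32 in HBB cells and 0.29 in Pkp4 cUTR cells, and 6 and 5 of them rose.
Ndufv1 (GRCm38 chr19:4007384-4012806, minus strand), which encodes the flavin-carrying core subunit that takes electrons from NADH, had a log2 CPM of 8.23, 8.15, 8.24 and 8.36 in HBB CB and 8.36, 8.19, 8.33 and 8.24 in HBB Ps. The Pkp4 cUTR samples had 8.25, 8.11, 8.16 and 8.34 in CB and 8.19, 8.25, 8.55 and 8.11 in Ps. The fractions overlapped in both lines, and the log2 FC was 0.03 ± 0.09 (SE, limma adjusted p = 0.762) and 0.06 ± 0.09 (adjusted p = 0.574).
Its iron-sulfur partner Ndufv2 went from 6.88, 6.90, 6.80 and 6.98 in HBB CB to 7.77, 7.59, 7.85 and 7.55 in HBB Ps. No Ps sample overlapped a CB sample, with a log2 FC of 0.80 ± 0.11 (adjusted p = 8.26e-06) in HBB and 0.74 ± 0.11 in Pkp4 cUTR cells, the highest among the core RNAs. Ndufs8, a core RNA whose product carries iron-sulfur clusters, rose by 0.40 ± 0.11 in HBB cells. Scaled to total reads, its log2 FC was 0.17 with an adjusted p of 0.0965.

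Among the accessory RNAs of complex I, Ndufa2 had the largest change in HBB cells. It had a log2 CPM of 6.27, 6.07, 6.24 and 6.47 in HBB CB and 7.41, 7.26, 7.49 and 7.16 in HBB Ps. Its levels in Pkp4 cUTR cells were 6.75, 6.20, 6.17 and 6.82 in CB and 7.33, 7.67, 8.05 and 7.08 in Ps. CB samples 1 and 4 of Pkp4 cUTR cells stood above the other 2, and even so every Ps sample was higher than every CB sample, with a log2 FC of 1.07 ± 0.17 (adjusted p = 4.98e-05) in HBB and 1.05 ± 0.17 in Pkp4 cUTR cells.
Ndufa1, a short accessory subunit, rose by 1.03 ± 0.11 in HBB and 0.85 ± 0.11 in Pkp4 cUTR cells. At the other end, Ndufa9, which sits beside the quinone site, rose by only 0.20 ± 0.06 in HBB cells (adjusted p = 0.0136) and had 0.09 ± 0.06 in Pkp4 cUTR cells (adjusted p = 0.227), and Ndufb8 of the membrane arm rose by 0.45 ± 0.08 and 0.34 ± 0.08. With libraries scaled to total reads Ndufa9 had −0.038 in HBB cells.

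Of the 7 assembly factors of complex I, which help to build it but are not part of the finished enzyme, 3 rose and none fell in each line, with a median of 0.34 in HBB and 0.25 in Pkp4 cUTR cells. Ndufaf2 rose by 0.68 ± 0.12 in HBB cells and by 0.65 ± 0.12 in Pkp4 cUTR cells. Ndufaf1 and the methyltransferase Ndufaf7 had 0.12 ± 0.11 (adjusted p = 0.374) and 0.16 ± 0.09 (adjusted p = 0.14) in HBB cells, within the spread of the samples by this test.

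Complex II, succinate dehydrogenase, is the complex of the chain with no mitochondrially encoded subunit, and its 4 RNAs had small changes. In HBB cells 3 of 4 rose, with a median log2 FC of 0.31, and in Pkp4 cUTR cells 2 rose, with a median of 0.26. The RNAs of the membrane anchors rose in both lines, Sdhc by 0.46 ± 0.06 and 0.45 ± 0.06, and Sdhd by 0.40 ± 0.09 and 0.31 ± 0.09.
Sdhc had a log2 CPM of 6.94, 6.96, 7.003 and 7.10 in HBB CB and 7.48, 7.40, 7.57 and 7.39 in HBB Ps. The other line, Pkp4 cUTR, had 7.10, 7.09, 7.05 and 7.13 in CB and 7.57, 7.52, 7.63 and 7.46 in Ps. The samples of a fraction lay close together and the fractions were well apart in both lines.
Sdha, the flavin-carrying catalytic subunit, had 6.97, 6.98, 6.85 and 6.79 in HBB CB and 7.15, 7.17, 7.08 and 7.001 in HBB Ps. All Ps samples lay just above all CB samples, and the log2 FC of 0.20 ± 0.07 passed (adjusted p = 0.0215). Without HBB CB sample 3 or 4 or HBB Ps sample 1 or 2 the adjusted p was 0.0587, 0.0685, 0.0589 and 0.0597. In Pkp4 cUTR cells Sdha had 0.17 ± 0.07 (adjusted p = 0.0518), and its CB and Ps samples overlapped.
The iron-sulfur subunit Sdhb had 0.22 ± 0.09 (adjusted p = 0.0504) in HBB and 0.21 ± 0.09 (adjusted p = 0.0595) in Pkp4 cUTR cells, and stood at the threshold. In HBB cells it passed in 12 of 26 alternatives, with an adjusted p of 0.014 to 0.0499. They included the fits without HBB CB sample 4 (adjusted p = 0.0312), HBB Ps sample 4 (0.0442), Pkp4 cUTR CB sample 2 (0.049), CB sample 4 (0.0323) and Ps sample 3 (0.0213). They also included the fit without both CB samples 4 (0.0168), a replicate block shared by the lines (0.0425), only the 8 samples compared (0.014), quantile normalization (0.0214), log2(CPM + 1) (0.0491), the level filter (0.045) and the unweighted fit (0.0499). With libraries scaled to total reads 1 of the 4 RNAs of complex II rose in either line, and the median was 0.07 in HBB and −0.00 in Pkp4 cUTR cells.

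Complex III, the cytochrome bc1 complex, passes electrons from ubiquinol to cytochrome c, and it had the widest range of the 5 complexes. In both lines 7 of its 8 members rose, with a median of 0.75 in HBB and 0.77 in Pkp4 cUTR cells. Cyc1, a subunit of this complex outside the symbol rule, passed in neither line and is given below. The exception among the members was Uqcrc1 (chr9:108936633-108949623, plus strand), one of the large core proteins that face the matrix. It had a log2 CPM of 8.18, 8.09, 8.23 and 8.37 in HBB CB and 8.23, 8.06, 8.22 and 8.15 in HBB Ps. Samples of Pkp4 cUTR cells had 8.23, 8.20, 8.23 and 8.30 in CB and 8.14, 8.16, 8.44 and 8.08 in Ps. The fractions overlapped in both lines, and the log2 FC was −0.05 ± 0.08 (adjusted p = 0.582) and −0.03 ± 0.08 (adjusted p = 0.736). Scaled to total reads it was −0.29 in HBB cells (adjusted p = 0.000722).
Uqcrb (chr13:66900617-66905378, minus strand), the small ubiquinone-binding subunit of the same complex, had 4.77, 4.75, 4.65 and 4.77 in HBB CB and 6.05, 6.02, 6.11 and 5.85 in HBB Ps. In Pkp4 cUTR cells it had 5.07, 4.61, 4.67 and 5.32 in CB and 6.01, 6.16, 6.41 and 5.95 in Ps. In HBB cells the gap between the fractions was several times the spread within them, and in Pkp4 cUTR cells the fractions did not overlap. The log2 FC was 1.28 ± 0.13 (limma adjusted p = 2.49e-07), a fold of 2.42, in HBB cells. It was 1.22 ± 0.13, a fold of 2.32, in Pkp4 cUTR cells. The hinge protein Uqcrh rose by 1.00 ± 0.12 and 1.01 ± 0.12. The second core protein, Uqcrc2, rose by 0.37 ± 0.07 and 0.27 ± 0.07, and scaled to total reads it had 0.13 in HBB cells with an adjusted p of 0.154.

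Complex IV, cytochrome c oxidase, has a catalytic centre encoded in mitochondrial DNA and a shell of small nuclear-encoded subunits. All 12 of its members rose in both lines, from 0.55 for Cox6a1 to 1.39 for Cox7b2 in HBB cells. Their median was 0.76 in HBB and 0.69 in Pkp4 cUTR cells. Cox4i1, a subunit outside the symbol rule, is given below. Scaled to total reads, 11 of 12 rose in either line.
Cox7b (chrX:106015700-106022450, plus strand) had a log2 CPM of 6.32, 6.21, 6.25 and 6.32 in HBB CB and 7.55, 7.41, 7.68 and 7.30 in HBB Ps. The Pkp4 cUTR samples had 6.56, 6.28, 6.12 and 6.71 in CB and 7.51, 7.54, 7.84 and 7.34 in Ps. All Ps samples were well above all CB samples, with a log2 FC of 1.21 ± 0.12 (adjusted p = 1.98e-07) in HBB and 1.14 ± 0.12 in Pkp4 cUTR cells. Its paralogue Cox7b2, known from testis, was read at a low level, 0.91 to 1.77 in HBB CB and 2.71 to 2.85 in HBB Ps, with a fewest of 50 reads. It rose by 1.39 ± 0.22 and 1.198 ± 0.22.
Isoforms of one subunit differed by less than the sum of their standard errors. For subunit 6A, the widely expressed Cox6a1 rose by 0.55 ± 0.12 in HBB and 0.49 ± 0.12 in Pkp4 cUTR cells, and the heart and muscle isoform Cox6a2, with 31 reads in its lowest sample, by 0.63 ± 0.20 and 0.67 ± 0.19. Without HBB CB sample 2, Cox6a2 had 0.50 in HBB cells with an adjusted p of 0.0541, and scaled to total reads 0.40 with an adjusted p of 0.093. Cox5b rose by 0.61 ± 0.11 in HBB cells, Cox6b1 by 0.66 ± 0.11, Cox7a2 by 0.90 ± 0.12, Cox8a by 0.72 ± 0.10 and Ndufa4, first assigned to complex I and now placed in complex IV, by 0.79 ± 0.12. The supercomplex factor Cox7a2l, related to Cox7a2, rose by 0.95 ± 0.09 in HBB and 0.88 ± 0.09 in Pkp4 cUTR cells. The muscle and testis isoforms Cox6b2, Cox7a1, Cox8b and Cox8c were not in the table.

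Complex V joins the F1 head, which makes ATP, to the Fo ring in the membrane by a central and a peripheral stalk. In HBB cells 14 of its 15 members rose and in Pkp4 cUTR cells 13, with a median of 0.70 in both lines. Within the complex the RNAs of F1 were spread more widely than those of Fo and the peripheral stalk, and a difference between these parts was not tested. The 10 RNAs of Fo and the peripheral stalk all rose in both lines, from 0.60 to 0.95 in HBB cells. The 5 RNAs of F1 ranged from 0.09 to 1.16, and 4 rose in HBB and 3 in Pkp4 cUTR cells.
Atp5b (chr10:128083273-128090391, plus strand), which encodes the catalytic β subunit, had a log2 CPM of 10.98, 10.99, 11.00 and 11.02 in HBB CB and 11.17, 11.01, 11.18 and 11.01 in HBB Ps. Its levels in Pkp4 cUTR cells were 11.06, 11.07, 11.04 and 11.03 in CB and 11.17, 11.08, 11.24 and 11.04 in Ps. CB and Ps overlapped in both lines, and the log2 FC was 0.09 ± 0.07 (adjusted p = 0.239) and 0.08 ± 0.07 (adjusted p = 0.325). Scaled to total reads it was −0.14 in HBB cells, and under quantile normalization, which forces all samples to one distribution, −0.66. The α subunit Atp5a1 rose by 0.19 ± 0.06 in HBB cells (adjusted p = 0.00995) and had 0.13 ± 0.06 in Pkp4 cUTR cells (adjusted p = 0.0678), and in HBB cells it had −0.0457 scaled to total reads and −0.0634 under quantile normalization.
Atp5e (chr2:174461072-174464105, minus strand), the ε subunit of the central stalk and the member with the shortest coding sequence, had 7.31, 7.23, 7.22 and 7.76 in HBB CB and 8.58, 8.39, 8.78 and 8.42 in HBB Ps. The other line, Pkp4 cUTR, had 7.67, 7.23, 7.22 and 7.89 in CB and 8.41, 8.80, 9.20 and 8.30 in Ps. Both lines had their highest CB value in sample 4 and no overlap with Ps, and the log2 FC was 1.16 ± 0.18 (adjusted p = 3.06e-05) and 1.18 ± 0.18. The δ subunit Atp5d rose by 0.75 ± 0.12 and 0.80 ± 0.12.
The c subunit of the Fo ring is made from 3 genes that differ in their import sequences and give the same mature protein. Atp5g1 rose by 0.63 ± 0.13 in HBB and 0.61 ± 0.13 in Pkp4 cUTR cells, Atp5g2 by 0.70 ± 0.09 and 0.57 ± 0.09, and Atp5g3 by 0.60 ± 0.10 and 0.50 ± 0.10. The changes of any pair of these genes differed by less than the sum of their standard errors. Subunit e (Atp5k) rose by 0.86 ± 0.17 and coupling factor 6 (Atp5j) by 0.95 ± 0.10 in HBB cells, the largest values of Fo and the peripheral stalk.

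**Figure D3:**
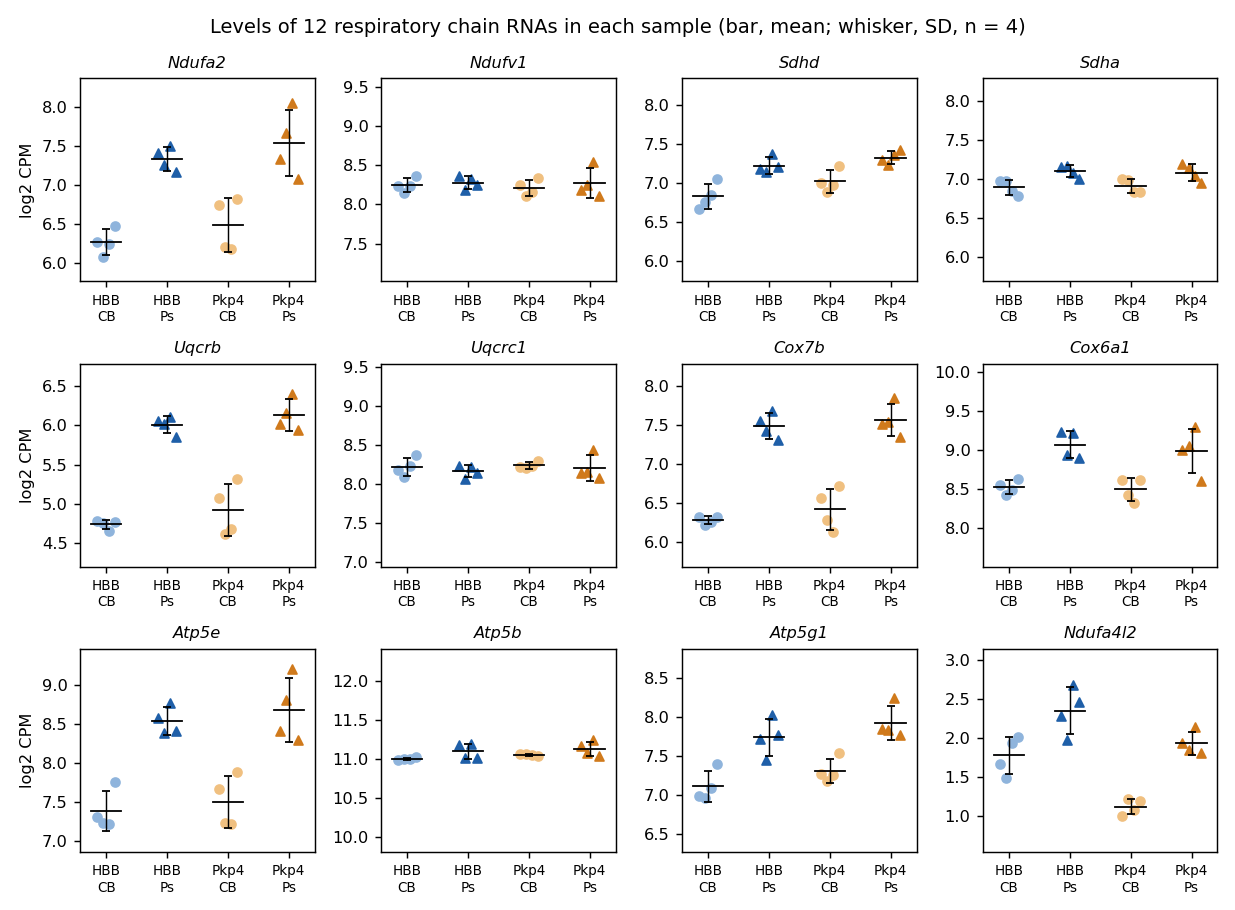
Log2 CPM (vertical axis, 2.6 units in each panel) of 12 RNAs in the 4 groups. Circles are CB and triangles Ps samples, bars are means and whiskers SD, n = 4. Ndufv1, Uqcrc1 and Atp5b overlap between CB and Ps, and Ndufa2, Uqcrb, Cox7b and Atp5e do not. Ndufa4l2 is the RNA that is lower in CB of Pkp4 cUTR cells.

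Together, 71 members rose in both lines and 8 in neither in the fit as reported. Those 8 were Uqcrc1, Ndufv1, Atp5b and Sdhb of complexes III, I, V and II, the assembly factors Ndufaf1, Ndufaf6 and Ndufaf7, and Atp5sl, of which Ndufaf6 and Atp5sl are named after their values were seen. No member of complex IV was among them. Taken singly, 28.3% of all RNAs rose in HBB and 28.2% in Pkp4 cUTR cells. For all RNAs the share that rose in both lines or in neither was not counted.

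The Pkp4 3′UTR was expressed to compete for the transport of a group of protrusion RNAs, and the Ps over CB ratio was therefore compared between the lines as log2(Diff FC), Pkp4 cUTR minus HBB. No change in the enrichment of the respiratory chain RNAs was detected between the lines. No member passed (limma-voom, adjusted p under 0.05), and 0% of all RNAs did. At an unadjusted p under 0.05 it was 0 of 86 members and 300 of 12900 RNAs (2.33%). The median log2(Diff FC) of the members was −0.03, with 63 of 86 below 0, where 51.6% of all RNAs were above 0. The 95% interval of each member lay within −1 to 1, and that of 70 members within −0.5 to 0.5.
The smallest p was that of Atp5s, a protein related to ATP synthase. It had a log2 CPM of 0.71, 0.71, 0.50 and 0.72 in HBB CB and 1.25, 1.72, 1.54 and 1.33 in HBB Ps. Samples of Pkp4 cUTR cells had 1.03, 0.88, 0.88 and 1.41 in CB and 1.26, 1.54, 1.61 and 1.02 in Ps. The fractions overlapped in Pkp4 cUTR cells and not in HBB cells, and log2(Diff FC) was −0.49 with a 95% interval of −0.995 to 0.01 (limma unadjusted p = 0.0545), at 36 reads in its lowest sample. Ndufaf4, an assembly factor also read at low depth, had −0.42 with an interval of −0.94 to 0.10, Ndufa1 −0.18, Ndufa9 −0.11 and Ndufa4l2 0.25.
Across the 86 members the log2 FC of the lines, which share no sample, had a Pearson's r of 0.949 and a Spearman's rho of 0.925. Across all 12900 RNAs these were 0.912 and 0.925. Genes are not independent replicates, and samples with the same number in the 2 lines also varied alike.

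**Figure D4:**
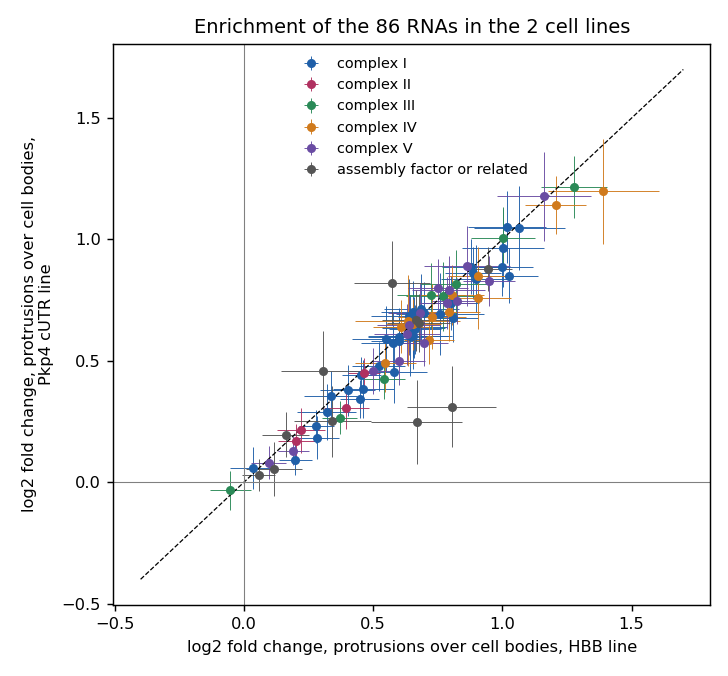
Log2 FC of Ps over CB in HBB cells (horizontal axis) and Pkp4 cUTR cells (vertical axis) for the 86 RNAs, coloured by complex, with standard errors as bars. The dashed line marks equal values. For 83 of 86 RNAs the lines differ by less than 0.2, as they do for 9711 of all 12900 RNAs. Uqcrc1 at the lower left is the RNA of the 86 that is below 0 in both.

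Levels of the members were also compared between the lines within each fraction. At an unadjusted p under 0.05, 4 of 86 members differed in CB and 22.9% of all RNAs did. After adjustment 1 member passed, where 3.42% of all RNAs were higher and 5.55% lower in Pkp4 cUTR cells. It was Ndufa4l2 (chr10:127514967-127517154, plus strand), a paralogue of Ndufa4 known to be induced by hypoxia, whose exons overlap those of Shmt2 on the other strand. It had a log2 CPM of 1.67, 1.49, 1.94 and 2.02 in HBB CB and 1.01, 1.22, 1.08 and 1.19 in Pkp4 cUTR CB, and every Pkp4 cUTR sample lay below every HBB sample. The log2 FC was −0.65 (adjusted p = 0.017), at 54 reads in its lowest sample. Without HBB CB sample 3 it was −0.59 with an adjusted p of 0.0644, without Pkp4 cUTR CB sample 1 −0.61 with 0.0593, and without the CB samples 4 of both lines −0.61 with 0.0626.
In Ps Ndufa4l2 had 2.28, 1.98, 2.69 and 2.47 in HBB cells and 1.95, 1.85, 2.14 and 1.81 in Pkp4 cUTR cells. These overlapped, with a log2 FC of −0.41 (adjusted p = 0.127), and without HBB Ps sample 2 it was −0.53 with an adjusted p of 0.0413. Within each line Ndufa4l2 was higher in Ps, by 0.57 ± 0.15 in HBB and 0.82 ± 0.17 in Pkp4 cUTR cells.
No member passed in Ps, where 2.89% of all RNAs were higher and 4.26% lower. At an unadjusted p under 0.05 it was 3 of 86 members and 22% of all RNAs. The smallest p values after Ndufa4l2 belonged to Atp5o, which encodes a protein of the peripheral stalk (0.32, adjusted p = 0.131), Cox8a (−0.22, adjusted p = 0.178), Cox6a2 (0.36, adjusted p = 0.28) and Ndufa5 (0.23, adjusted p = 0.38). Without the CB samples 4 of both lines Atp5o had an adjusted p of 0.0349, and scaled to total reads Cox8a had −0.26 with 0.0401. Over the members the median log2 FC between the lines was 0.08 in CB and 0.04 in Ps. Of the markers of other cell types, Adipoq of adipocytes had 0 to 1 reads in HBB samples and 11 to 29 in Pkp4 cUTR samples, Cdh1 was higher by 0.52 in CB of Pkp4 cUTR cells (adjusted p = 0.0247) and Krt8 by 0.53 in Ps (adjusted p = 0.0466), both epithelial markers. The endothelial marker Cdh5 was lower by a log2 FC of −1.21 in CB (adjusted p = 0.0226), at 6 to 31 reads. The other endothelial marker, Pecam1, had −0.16 in CB (adjusted p = 0.79) and 0.10 in Ps (adjusted p = 0.908). Cdh1 had 0.32 in Ps (adjusted p = 0.254) and Krt8 0.43 in CB (adjusted p = 0.0635). Cd68 and Tubb3 passed in neither fraction. The part of these markers in the members' differences between the lines was not tested. The construct's own sequence served as a check of the labels, since the reads of Pkp4 were 4.44 higher on the log2 scale in CB of Pkp4 cUTR cells.

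The size of the change went with the length of the coding sequence. Coding lengths were taken from the GENCODE vM21 annotation for 86 of 86 members, and their median was 436.5 bases, with 156 for the shortest, against 1377 for 11269 other protein-coding RNAs. Across the members Spearman's rho between coding length and log2 FC was −0.73 in HBB and −0.75 in Pkp4 cUTR cells, and across the other RNAs −0.34 and −0.28. The points come from the same libraries, and base composition and depth were not held constant.
Split by coding length, the members' median log2 FC in HBB cells was 0.86 for 21 RNAs up to 300 bases and 0.20 for 10 RNAs above 1200 bases. Other RNAs of these lengths had medians of 0.66 and −0.16. In the 4 classes between, the members' medians were 0.67, 0.66, 0.45 and 0.34 and those of other RNAs 0.46, 0.33, 0.13 and 0.00, and 4 of the 6 classes held fewer than 20 members. Within the complexes Spearman's rho in HBB cells lay between −0.60 for complex III and −0.80 for complex II, with 4 to 36 RNAs each, and in Pkp4 cUTR cells between −0.40 for complex IV and −0.80 for complex II. In HBB cells complex IV, with a median coding length of 247.5 bases, and complex III, with 300 bases, had the highest medians of log2 FC, and the complex I core, with 789 bases, and complex II, with 676.5, the lowest. The F1 RNAs of complex V, with the longest median of 894 bases, did not follow this order and had a median log2 FC of 0.50, above the complex I core and complex II. In Pkp4 cUTR cells complex III had the highest median of the 5 complexes, and complexes V and IV had 0.70 and 0.69.

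**Figure D5:**
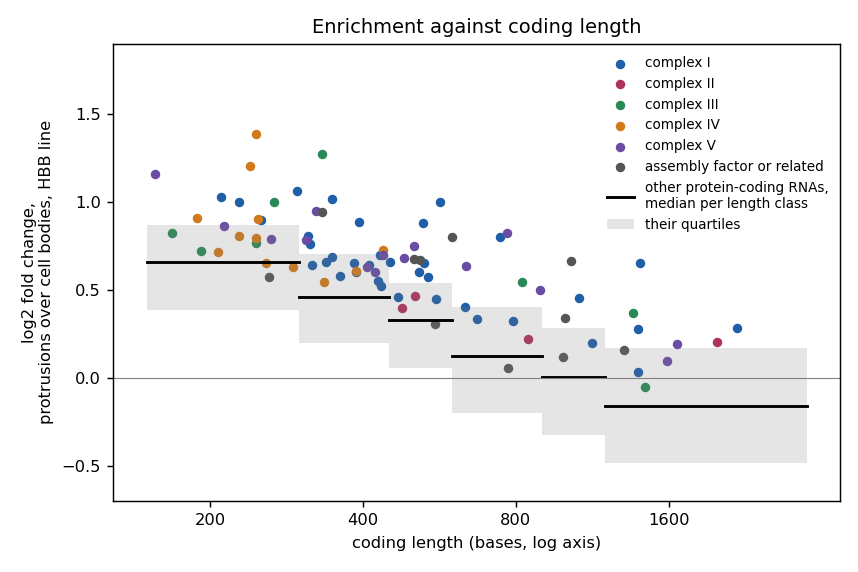
Log2 FC of Ps over CB in HBB cells (vertical axis) against coding length in bases (horizontal log axis) for the 86 RNAs, coloured by complex. Black lines are the medians and grey boxes the quartiles of other protein-coding RNAs in 6 length classes. The members fall with length, and their median lies above that of other RNAs in each class, by 0.86 against 0.66 in the shortest and 0.20 against −0.16 in the longest.

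Other RNAs of the same pathway were looked at beside the members. Of 5 subunits, inhibitors or carriers outside the symbol rule, 4 rose in both lines. Cox4i1, a complex IV subunit, rose by 0.58 ± 0.11 in HBB cells and by 0.59 ± 0.11 in Pkp4 cUTR cells, and cytochrome c (Cycs) by 0.61 ± 0.11 and 0.42 ± 0.11. Cytochrome c1 (Cyc1), a heme-carrying subunit of complex III, had 0.08 ± 0.07 (adjusted p = 0.349) and 0.13 ± 0.07 (adjusted p = 0.115).
Of 34 assembly factors outside the rule, 18 rose and 3 fell in HBB cells and 18 rose and 2 fell in Pkp4 cUTR cells, with medians of 0.26 and 0.22. Of 8 transcriptional regulators of mitochondrial genes, 0 rose and 2 fell in HBB cells and 1 rose and 2 fell in Pkp4 cUTR cells. Between the lines, the heme synthesis factor Cox15 was lower in Ps of Pkp4 cUTR cells by a log2 FC of −0.47 (adjusted p = 0.0185), and Tfam, which packages mitochondrial DNA, was higher in CB by 0.30 (adjusted p = 0.0228).

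Further groups of RNAs for the energy and protein machinery serve as a scale. The 78 RNAs of cytosolic ribosomal proteins had a median log2 FC of 1.11 in HBB cells, with 76 higher, and the 78 RNAs of mitochondrial ribosomal proteins had 0.44, with 63 higher. The respiratory chain RNAs lay between them. Of the mitochondrially encoded subunits 11 were in the table, and 8 rose in HBB cells, with a median of 1.16 and a range from −0.38 to 2.48. The highest values came from RNAs with a low mean log2 CPM in HBB CB. They were mt-Co3 (2.48, at a mean of 0.91), mt-Nd3 (2.47, at −1.01) and mt-Atp6 (1.82, at −0.77). The well-read mt-Nd1, at a mean of 10.4, rose by 1.47. Of the 11 RNAs, 7 rose and 1 fell in Pkp4 cUTR cells. Between the lines mt-Co1, a catalytic subunit of complex IV, was lower in Ps of Pkp4 cUTR cells by a log2 FC of −0.65 (adjusted p = 0.0499), all 11 had values below 0 in Ps, and none passed in CB. No test of the differences between these groups was made.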

How the data were processed

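Per the labels and the study's methods, libraries were made from total RNA with an Illumina stranded kit. The authors aligned reads to mm10 with STAR (2.4.2a), counted them per gene with Rsubread, and deposited limma-voom (limma 3.26.1) log2 CPM. The study states a filter at a log CPM above 0.5 in at least one sample. The deposited values also hold RNAs below a log2 CPM of 0.5 in every sample. An example is Lyrm7, with a highest value of −0.23 in Pkp4 cUTR Ps sample 2. Each value is the log2 of the reads, with 0.5 added, per 1000000 of a library size that was scaled and had 1 added. The method of scaling is not given in the sources used here. The deposited values gave whole reads within 0.01 in 100% of cases.

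A limma-voom model (limma 3.58.1, R 4.3.3) was fitted to these reads, keeping the scaled library sizes of the authors, with 1 mean for each of the 4 groups over all 16 samples, and p-values were adjusted over 12900 RNAs (Benjamini-Hochberg). FC and log2 values with ± carry the standard error of this fit, and intervals are at 95%. Members, gene lists and alternatives were chosen with earlier results of these data known. Named were the 2 highest and 2 lowest members of each group of subunits by log2 FC in HBB cells, paralogous isoforms, and, between lines, members called or the 5 of smallest p. One RNA that this rule names is not reported here. The study calls the replicates independent, and separate cultures are not labelled, so p-values measure the spread between these samples. Samples with one number varied alike in both lines: their deviations from the group means correlated by 0.483 on average in CB and 0.316 in Ps and all 4 pairs above 0.1 in both, and the numbers come from the sample labels. A block by number changed no call between the lines. Alternatives were other scalings, an unweighted fit, log2(CPM + 1), a filter at a mean log2 CPM of 1, replicate blocks, only the 8 samples compared, and leaving out samples.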

Additional observations from a re-analysis of the deposited data

Results flagged for a closer look

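In each group of 4 samples, the gap between the extreme sample and its nearest neighbour was divided by the range of the group. For 43 named members in 4 groups, 172 tests, the ratio passed Dixon's critical value at 95% in 9 cases, and chance alone gives about 1 in 20. Samples far from the other 3 of their group on the low side were Ndufa1 in HBB Ps sample 4 (log2 CPM of 5.79, others 6.09 to 6.15), Ndufaf1 in HBB Ps sample 1 (3.28, others 3.47 to 3.50), Ndufaf7 in HBB CB sample 3 (4.59, others 4.75 to 4.77) and Atp5s in HBB CB sample 3 (0.50, others 0.71 to 0.72). Samples far on the high side were Atp5e in HBB CB sample 4 (7.76, others 7.22 to 7.31) and Ndufa5 in HBB CB sample 1 (4.66, others 4.48 to 4.50). In Pkp4 cUTR Ps, sample 3 was far above the others for Ndufaf2 (4.00, others 3.62 to 3.65), Sdhb (7.70, others 7.32 to 7.36) and Atp5g1 (8.24, others 7.77 to 7.85).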

How the results depend on the processing

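The counts of members that rose in Ps stayed between 65 and 79 in HBB and between 59 and 76 in Pkp4 cUTR cells in every alternative run. Members that fell, 0 in the fit as reported, were 1 in each line under quantile normalization, and 4 in HBB and 6 in Pkp4 cUTR cells with libraries scaled to total reads, where the members' median in HBB cells was 0.42. Leaving out each sample in turn gave 75 to 79 higher members in HBB and 70 to 76 in Pkp4 cUTR cells, 0 lower in either, a median of 0.59 to 0.70, 0 changes of enrichment between the lines, 0 to 1 changed members in CB and 0 to 1 in Ps. Without the cell-body samples 4 of both lines, 0 members changed in CB and 1 in Ps, and scaled to total reads 1 changed in Ps.

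Among single members scaled to total reads, the log2 FC turned to −0.20 for Ndufv1, −0.0382 for Ndufa9, −0.0353 for Sdha, −0.14 for Atp5b and −0.0457 for Atp5a1 in HBB cells, and under quantile normalization to −0.66 for Atp5b and −0.0634 for Atp5a1. The total-read scaling moves every RNA by one amount per library, and the cause of the other changes was not tested.

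The numbers were not taken to pair Ps with CB within a line. Same-numbered samples correlated by 0.178 on average in HBB cells, with 3 of 4 pairs above 0.1 and a range of 0.0455 to 0.389, and by −0.161 in Pkp4 cUTR cells, with 0 pairs above 0.1. With the replicate block shared by the lines 78 members rose in HBB and 75 in Pkp4 cUTR cells, and with the block within each line 76 and 73. The shared block changed none of the counts of calls between the lines. The block within each line left the count for log2(Diff FC) unchanged, and it cannot give the CB and Ps comparisons between the lines. Members with few reads have wide intervals, such as Cox7b2 and Cox6a2, and a log2(Diff FC) had a 95% interval of ±0.18 to ±0.64.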
